A study of Rattus norvegicus with 6 samples.

Results

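Collagens are secreted proteins whose chains wind into triple helices, and their genes were examined here in rat retina after an injection into the vitreous, the gel that fills the eye. Members were the rows of the deposited count table named Col, a number, a and a number that had 10 or more counts in at least 3 libraries. This left 43 of 34335 rows. Of 44 rows with such a name, only Col26a1 was dropped, with 0 counts in every saline library and 8, 0 and 4 counts in DMP libraries 30, 31 and 33. All 43 members were tested, and 42 had 10 or more counts in every library, Col28a1 being the exception.

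The animals of both groups were BN rats, a pigmented inbred strain, labelled wild type (WT), and the tissue was labelled retina. One group received 2 µL of saline and the other 2 µL of DMP, a cationic micelle known from the labels by this code alone, at 10 mg/mL in water. The series title names choroidal neovascularization, growth of new vessels from beneath the retina, as the process on which the micelle was studied. Each group had 3 libraries, numbered 30, 31 and 33 in both groups, and the labels do not say what a number marks or whether the libraries came from separate animals. A p-value here therefore measures spread between these libraries alone, which may be technical in origin. The vehicles differed, so the micelle and its water vehicle cannot be told apart, and neither the age of the rats nor the time from injection to collection was given in the labels.

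In the eye, collagens are known from several structures. The vitreous gel is held by thin fibrils of type II collagen with type XI in their core and type IX on their surface, and type IX belongs to the FACIT collagens, which attach to fibrils without forming them. The inner limiting membrane, Bruch's membrane and vessel walls contain type IV collagen, the sheet-forming collagen of basement membranes, together with type XVIII, a multiplexin whose C-terminal fragment is endostatin. Type VI collagen forms beaded filaments in the matrix around cells, while types I and III are the coarse fibrils of sclera and other connective tissue.

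Several collagen genes lie in pairs, and the promoters of members discussed below are shown because 1 such pair, Col4a5 and Col4a6, lay lower together after DMP. On mRatBN7.2, the build of the deposited table, Col4a5 and Col4a6 start 1263 bases apart on opposite strands of chromosome X, Col4a1 and Col4a2 start 173 bases apart on chromosome 16, and Col4a3 and Col4a4 start 522 bases apart on chromosome 9. Sequences were taken from RefSeq on another assembly, GRCr8, which held a window from 250 bases before to 50 after the start of 34 of the 43 members. Capitals mark matches on either strand to the GC box GGGCGG, to CCAAT or to TATAAA, and a CCAAT match on the other strand can share letters with a GC box beside it. Col4a5 lies at chrX:109907109-109907408 on the plus strand, Col4a6 at chrX:109905895-109906194 on the minus strand, and the stretch of 176 bases common to the Col4a1 and Col4a2 windows at chr16:84885471-84885646. Col9a1 lies at chr9:34081114-34081413 on the plus strand and Col18a1 at chr20:11473395-11473694 on the plus strand.
Col4a5: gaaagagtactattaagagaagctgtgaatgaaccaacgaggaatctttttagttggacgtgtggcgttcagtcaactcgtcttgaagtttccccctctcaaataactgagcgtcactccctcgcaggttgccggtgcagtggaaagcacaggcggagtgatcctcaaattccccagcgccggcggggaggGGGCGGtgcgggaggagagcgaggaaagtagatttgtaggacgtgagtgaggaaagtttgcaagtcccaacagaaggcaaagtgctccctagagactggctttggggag
Col4a6: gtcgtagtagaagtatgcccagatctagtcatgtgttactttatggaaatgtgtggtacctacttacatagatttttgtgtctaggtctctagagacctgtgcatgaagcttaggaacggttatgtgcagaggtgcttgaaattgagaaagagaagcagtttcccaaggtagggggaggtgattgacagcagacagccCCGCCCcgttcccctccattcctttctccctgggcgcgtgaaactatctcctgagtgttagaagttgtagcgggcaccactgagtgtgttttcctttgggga
Col4a1 and Col4a2, shared: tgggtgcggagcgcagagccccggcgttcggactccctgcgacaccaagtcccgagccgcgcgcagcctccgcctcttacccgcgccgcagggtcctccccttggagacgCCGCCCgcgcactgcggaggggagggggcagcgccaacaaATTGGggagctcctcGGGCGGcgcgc
Col9a1: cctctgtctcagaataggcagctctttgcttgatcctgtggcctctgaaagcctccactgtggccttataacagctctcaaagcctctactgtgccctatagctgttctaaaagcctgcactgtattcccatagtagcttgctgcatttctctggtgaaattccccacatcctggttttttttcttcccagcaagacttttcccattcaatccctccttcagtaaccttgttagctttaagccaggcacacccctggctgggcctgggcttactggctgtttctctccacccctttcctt
Col18a1: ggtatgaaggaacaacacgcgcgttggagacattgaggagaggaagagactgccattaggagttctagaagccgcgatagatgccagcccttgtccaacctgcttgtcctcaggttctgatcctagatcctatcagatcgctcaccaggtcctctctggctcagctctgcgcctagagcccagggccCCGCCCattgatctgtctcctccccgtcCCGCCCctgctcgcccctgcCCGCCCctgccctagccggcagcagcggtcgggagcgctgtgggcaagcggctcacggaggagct
The Col4a5 and Col4a6 windows share 0 bases, and each holds 1 GC box. The stretch shared by Col4a1 and Col4a2 holds 2 GC boxes and 1 CCAAT. The Col9a1 window holds no match to any of the motifs, and the Col18a1 window holds 3 GC boxes. A GC box was present in 19 of the 34 member windows and in 33.1% of 33469 rat promoters of the same length, CCAAT in 11 and in 37.5%, and TATAAA in 4 and in 14.2%. Of the 8 windows of members that had an unadjusted p below 0.05 in the comparison described next, 5 held a GC box, 1 CCAAT and 1 TATAAA, against 14, 10 and 3 of the other 26. These matches are a description of the letters and not of binding.

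The collagen genes with an unadjusted p below 0.05 were all lower in the DMP libraries, but none passed the threshold over all genes. DMP was compared with saline by the quasi-likelihood test of edgeR, with Benjamini-Hochberg adjustment over the 18571 genes tested and a threshold of 0.05. No collagen gene was called, 0 of 43, where 4 genes were called in all, 0.0215% of those tested. At an unadjusted p below 0.05, 11 members were lower in DMP, or 25.6% of them, against 2.56% of all genes, and 0 members were higher, against 2.08% of all genes. The 11 were Col9a1, Col9a2, Col9a3, Col2a1, Col5a1, Col1a2, Col4a5, Col4a6, Col6a2, Col18a1 and Col8a2. By the other count models at an adjusted p below 0.05, DESeq2 called 4 members, all lower (Col6a2, Col4a6, Col4a5 and Col2a1, background 0.495%), and limma-voom called 0, at a background of 0.0215%. Without DMP library 33, edgeR called 6 members, all lower, at a background of 0.427%. They were Col9a1, Col9a3, Col18a1, Col4a6, Col9a2 and Col6a2. That library was the highest of the DMP group for 7 of the 11 lower members. With each other library left out, edgeR called 0 members, at backgrounds of 0 to 0.0475%.

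The wider set of members lay slightly below saline. The log2 difference, DMP minus saline, was below 0 for 34 of 43 members, against 50% of all genes, and its median was -0.12 against -0.00011 over all genes tested. Without DMP library 30 or without saline library 30 the median of the members was -0.075 and -0.074. The median over the other 32 members was -0.05. All 3 DMP libraries lay below all 3 saline libraries for 9 members, 20.9%, against 4.88% of all genes, and above them for 0 members, against 4.42%. Among the 11 lower members, DMP library 30 was the lowest of all libraries for 8 and DMP library 31 for 3, while DMP library 33 was the lowest for none. Saline library 30 was the highest for 7 of them. Over the same libraries, the summed level of fibroblast markers was 86.0 to 136.1 CPM (counts scaled to the normalised library size) in saline and 16.3 to 64.3 CPM in DMP, and that of ciliary epithelium markers 132.8 to 171.1 CPM and 86.7 to 113.2 CPM. Their part in the collagen differences was not tested.

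**Figure D1:**
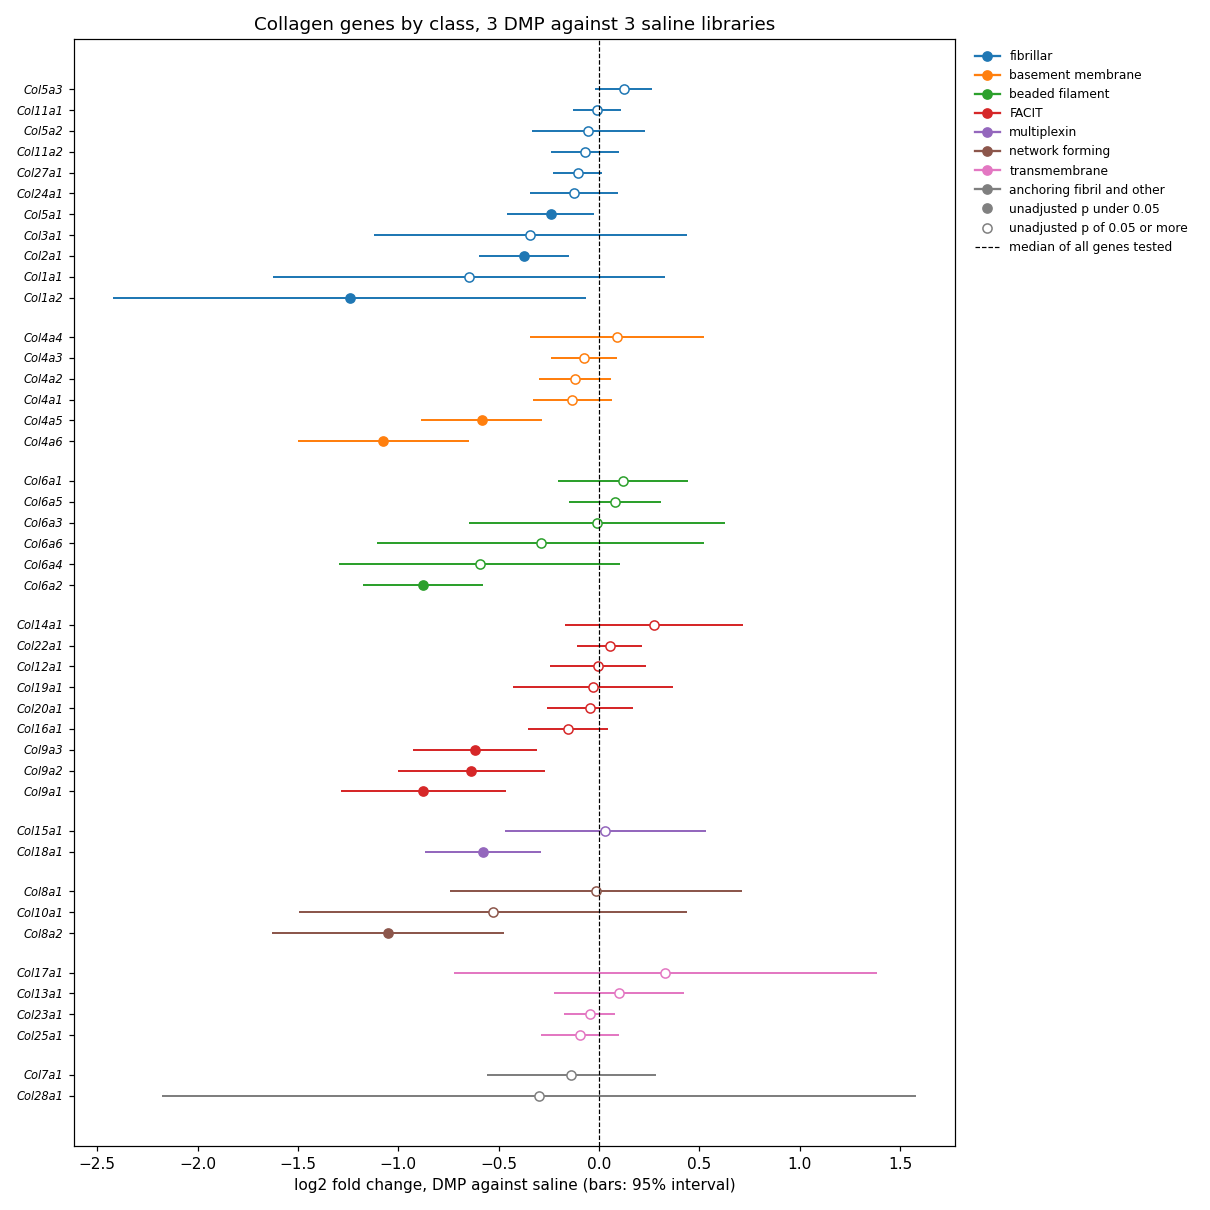
Log2 difference, DMP minus saline, of each of the 43 collagen genes by class (points) with its 95% interval from edgeR (bars, 3 libraries a group). Filled points have an unadjusted p below 0.05 and the dashed line is the median of all genes tested. The 11 filled points all lie below 0, in 6 of the 8 classes.

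Of the collagens of the vitreous fibril, those of types IX and II lay lower in DMP and those of type XI overlapped between groups. Col9a1, which encodes the α1 chain of type IX collagen, had 123.0, 93.0 and 120.2 CPM in saline libraries 30, 31 and 33, and 44.1, 56.3 and 82.7 CPM in the DMP libraries of the same numbers. The groups did not overlap, and DMP library 33 lay closest to saline. The mean level was 112 ± 16.6 CPM (SD, n = 3) in saline and 61.0 ± 19.7 CPM (SD, n = 3) in DMP, a log2 difference of -0.88 with a 95% interval of -1.28 to -0.47 and an adjusted p of 0.154 by edgeR. Without DMP library 33 it was -1.16 with an adjusted p of 0.00519 by edgeR. With each other library left out, the adjusted p ran from 0.224 to 0.618 by edgeR. DESeq2 on all libraries gave an adjusted p of 0.286. Col9a1 lies on chromosome 9 at 26585034 to 26668222 (mRatBN7.2).

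Both other chains of type IX showed the same order of DMP libraries. Col9a3 (chromosome 3, 167711776 to 167734468), the α3 chain, had 67.3, 56.8 and 70.6 CPM in saline and 34.5, 39.1 and 53.4 CPM in DMP, a log2 difference of -0.62 ± 0.138 (SE) with an adjusted p of 0.207 by edgeR. Col9a2 (chromosome 5, 134607616 to 134624678), the α2 chain, had 41.3, 29.0 and 35.0 CPM in saline and 17.7, 21.5 and 28.6 CPM in DMP, a log2 difference of -0.64 ± 0.164 (SE) with an adjusted p of 0.344 by edgeR. DESeq2 gave an adjusted p of 0.330 for Col9a3 and 0.607 for Col9a2. In each of the 3 genes the DMP libraries ran from 30 up to 33, with saline library 31 the lowest of its group, and no gene had overlapping groups. Col9a2 overlaps the opposite-strand gene LOC108351024 by 3553 bases, and the labels do not say whether counting used strand, so its level is less certain. That neighbour, at a mean of 13.4 CPM, had a log2 difference of 0.09.

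Col2a1, which encodes the only chain of type II collagen, also lay lower, by a smaller amount. It had 154.5, 118.6 and 127.6 CPM in saline and 105.1, 90.35 and 113.3 CPM in DMP, a log2 difference of -0.38 ± 0.0997 (SE) with an adjusted p of 0.372 by edgeR. The highest DMP library stayed below the lowest saline library. DESeq2 called this gene, with an adjusted p of 0.0107, and limma-voom did not, with an adjusted p of 0.428. Col2a1 lies on chromosome 7 at 129098489 to 129127620 (mRatBN7.2).

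Type XI collagen, the remaining partner in that fibril, lay at like levels in most libraries of both groups. Col11a1 had 370.1, 338.0 and 354.1 CPM in saline and 347.2, 339.6 and 367.6 CPM in DMP, and the 95% interval of its log2 difference of -0.01 ran from -0.13 to 0.11. The groups overlapped almost wholly. Col11a2 had a log2 difference of -0.07 with an interval of -0.23 to 0.09. Set against Col11a1 within each library, the CPM ratio of Col9a1 was 0.332, 0.275 and 0.340 in saline and 0.127, 0.166 and 0.225 in DMP. The ratio of Col2a1 to Col11a1 was 0.418, 0.351 and 0.360 in saline and 0.303, 0.266 and 0.308 in DMP. Neither ratio overlapped between groups, at an exact permutation p of 0.1, two-sided, the smallest that 3 libraries against 3 can give. Col9a1 and Col2a1 already lay apart between groups while Col11a1 overlapped, so these ratios add no separate support. The same holds for the ratios of Col4a5 to Col4a3, Col6a2 to Col6a1 and Col18a1 to Col15a1 given below.

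**Figure D2:**
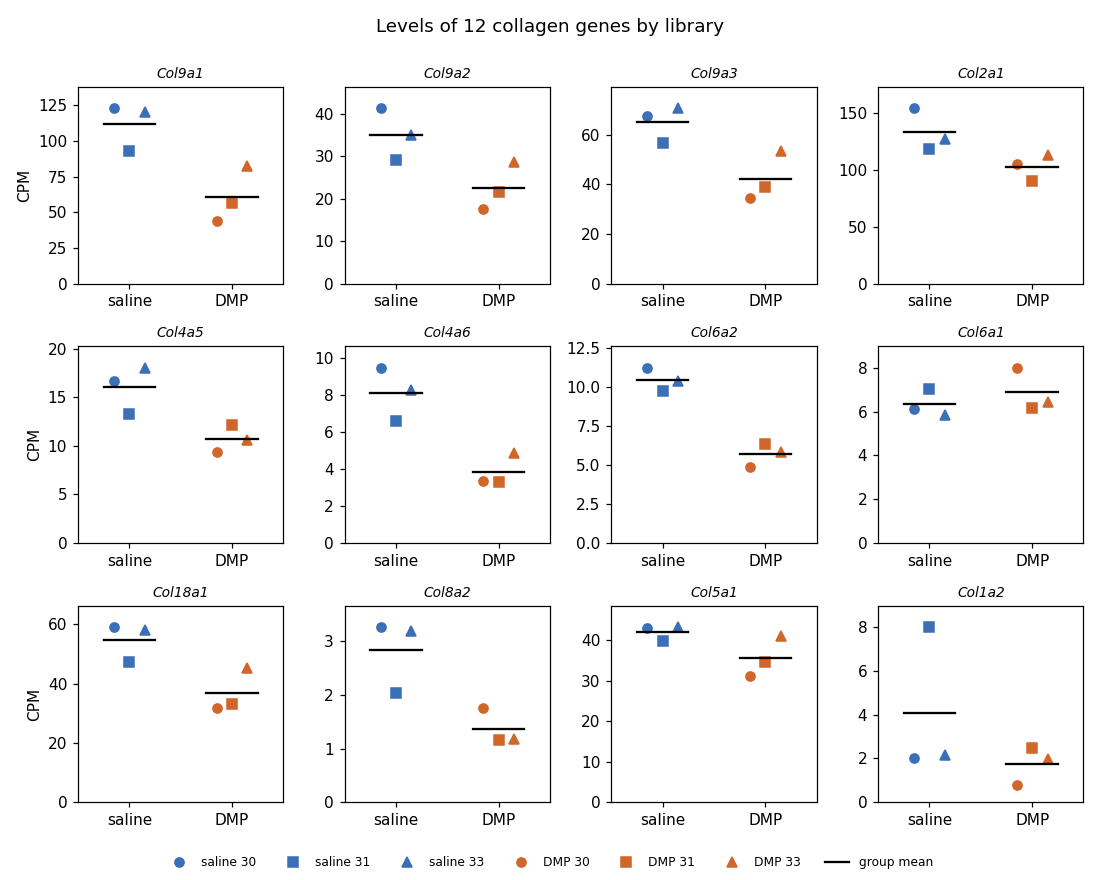
Level in CPM in each library of the 11 collagen genes with an unadjusted p below 0.05 and of Col6a1, with saline and DMP libraries as separate points. DMP lies below saline without overlap for the type IX genes, Col2a1, Col4a5, Col4a6, Col6a2, Col18a1 and Col8a2, while Col5a1, Col1a2 and Col6a1 overlap.

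The other FACIT genes overlapped between groups. Summed over the 3 type IX genes, the level was 231.6, 178.8 and 225.8 CPM in saline and 96.3, 116.9 and 164.6 CPM in DMP. Over the 6 other FACIT genes it was 133.2, 135.9 and 129.9 CPM in saline and 125.1, 131.5 and 136.6 CPM in DMP. Col22a1, which encodes a FACIT collagen of tissue junctions, had 63.3, 57.0 and 55.2 CPM in saline and 59.4, 57.0 and 65.7 CPM in DMP. Log2 differences of the 6 ran from -0.15 for Col16a1 to 0.27 for Col14a1, and none had an unadjusted p below 0.05. Col19a1, whose end lies 5694 bases from that of Col9a1 on chromosome 9, had a log2 difference of -0.03 with an interval of -0.43 to 0.36.

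The remaining fibrillar genes fell into a small, variable group of connective tissue collagens and a larger, steady one. Col1a2, which encodes the α2 chain of type I collagen, had 2.03, 8.02 and 2.17 CPM in saline and 0.764, 2.46 and 1.95 CPM in DMP. Its log2 difference of -1.24 ± 0.532 (SE), with an unadjusted p of 0.0396 and an adjusted p of 1.0 by edgeR, rested on saline library 31, and without that library it was -0.29. Col1a1 and Col3a1 had the same high library in saline, with 16.8 and 8.37 CPM in saline library 31 against 5.04 and 4.11 CPM in saline library 30 and 5.60 and 4.75 CPM in saline library 33. Their log2 differences were -0.65 and -0.34, with intervals that contained 0.

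Among the chains of type V collagen, which regulates fibril width, only Col5a1 had an unadjusted p below 0.05. Col5a1 had 43.0, 39.7 and 43.3 CPM in saline and 31.03, 34.5 and 41.0 CPM in DMP, a log2 difference of -0.24 ± 0.0955 (SE) with an unadjusted p of 0.028 and an adjusted p of 0.905 by edgeR. DMP library 33 lay within the saline range. Without DMP library 30 its log2 difference was -0.15, and its unadjusted p was below 0.05 in 8 of 12 alternative settings of the count-based tests. Col5a3 had 281.5, 323.4 and 283.9 CPM in saline and 312.4, 316.0 and 339.1 CPM in DMP, a log2 difference of 0.12 with an interval of -0.01 to 0.26. Col5a2, Col24a1 and Col27a1 had log2 differences of -0.05, -0.12 and -0.11, each with an interval that contained 0.

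Among the basement membrane genes, the pair on chromosome X lay lower and the other pairs overlapped between groups. Col4a6 (104766463 to 105117499) had 9.47, 6.58 and 8.23 CPM in saline and 3.34, 3.30 and 4.86 CPM in DMP, a mean of 8.09 ± 1.45 (SD, n = 3) against 3.84 ± 0.890 CPM (SD, n = 3). Its log2 difference was -1.08 with an interval of -1.50 to -0.65, and its adjusted p of 0.0969 by edgeR was 6.27e-05 by DESeq2. Col4a5 (105118762 to 105322699) had 16.7, 13.3 and 18.1 CPM in saline and 9.32, 12.1 and 10.6 CPM in DMP, a log2 difference of -0.58 ± 0.135 (SE) with an adjusted p of 0.235 by edgeR and 0.00973 by DESeq2. By limma-voom the adjusted p was 0.116 for Col4a6 and 0.251 for Col4a5. The groups did not overlap for either gene. These chains are known to assemble together in a subset of basement membranes, while Col4a1 and Col4a2 encode the chains found in nearly all.

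Levels of the other chains of type IV overlapped between groups. Col4a1 had 31.8, 28.9 and 29.9 CPM in saline and 24.8, 27.2 and 30.7 CPM in DMP, and its partner Col4a2 had a log2 difference of -0.12 beside -0.13 for Col4a1. Both intervals contained 0. Without DMP library 33 both log2 differences were -0.22, with unadjusted p of 0.032 for Col4a1 and 0.016 for Col4a2 by edgeR. The adjusted p were 0.967 and 0.715. For each gene this was the only 1 of 12 alternative settings of the count-based tests with an unadjusted p below 0.05. Col4a3, whose chain joins those of Col4a4 and Col4a5 in another network, had 41.5, 38.6 and 43.9 CPM in saline and 38.0, 38.0 and 41.7 CPM in DMP, a log2 difference of -0.08 with an interval of -0.23 to 0.08. Col4a4 had a log2 difference of 0.09 with an interval of -0.34 to 0.52. The CPM ratio of Col4a5 to Col4a3 within a library was 0.403, 0.345 and 0.411 in saline and 0.245, 0.319 and 0.255 in DMP, without overlap (exact permutation p of 0.1, two-sided, the smallest possible). The ratio of Col4a6 to Col4a5 overlapped between groups (exact permutation p of 0.2, two-sided).

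Type VI collagen held the member with the smallest p, and the nearest other collagen gene on the chromosome did not lie lower. Col6a2 (chromosome 20, 12021676 to 12049425), the α2 chain, had 11.3, 9.79 and 10.4 CPM in saline and 4.89, 6.38 and 5.84 CPM in DMP, a mean of 10.5 ± 0.740 (SD, n = 3) against 5.70 ± 0.754 CPM (SD, n = 3). Its log2 difference was -0.88 ± 0.133 (SE) with an adjusted p of 0.0626 by edgeR, 7.08e-06 by DESeq2 and 0.0831 by limma-voom. By edgeR on genes with at least 50 counts in 3 libraries the adjusted p was 0.0418. There Col6a2 was the only member called, and 0.0842% of all genes were. Col6a1 (11906105 to 11924599), the α1 chain, with which Col6a2 is known to assemble, had 6.12, 7.03 and 5.87 CPM in saline and 8.02, 6.17 and 6.47 CPM in DMP. Its log2 difference was 0.12 with an interval of -0.20 to 0.44. The CPM ratio of Col6a2 to Col6a1 was 1.84, 1.39 and 1.77 in saline and 0.610, 1.03 and 0.903 in DMP, without overlap (exact permutation p of 0.1, two-sided, the smallest possible). Both genes lie on chromosome 20, 97077 bases apart.

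The other beaded filament genes overlapped between groups or had few counts. Col6a5 had 19.6, 20.1 and 16.2 CPM in saline and 20.0, 18.1 and 20.9 CPM in DMP. Col6a4 had a log2 difference of -0.60 with an interval of -1.29 to 0.10, and Col6a3 and Col6a6 had -0.01 and -0.29, with intervals that contained 0.

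Of the multiplexins, Col18a1 lay lower in DMP and Col15a1 overlapped between groups. Col18a1 (chromosome 20, 11474104 to 11582593), the source of endostatin, had 59.2, 47.2 and 58.0 CPM in saline and 31.9, 33.03 and 45.2 CPM in DMP, a log2 difference of -0.58 ± 0.129 (SE) with an adjusted p of 0.203 by edgeR. All DMP libraries lay below all saline libraries, and library 33 was again the highest of the DMP group. Without that library the adjusted p was 0.0127 by edgeR, and with each other library left out it ran from 0.217 to 0.753. DESeq2 on all libraries gave an adjusted p of 0.278. Col15a1, a related gene whose protein is known from vessel basement membranes, had 1.79, 1.38 and 1.52 CPM in saline and 1.76, 1.43 and 1.60 CPM in DMP, with an interval of its log2 difference from -0.46 to 0.53. The CPM ratio of Col18a1 to Col15a1 was 33.1, 34.2 and 38.2 in saline and 18.2, 23.1 and 28.2 in DMP, without overlap (exact permutation p of 0.1, two-sided, the smallest possible).

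Of the network forming genes, Col8a2, a chain of type VIII collagen of Descemet's membrane and vessel walls, had 3.27, 2.03 and 3.19 CPM in saline and 1.76, 1.16 and 1.17 CPM in DMP, from 55 to 166 counts a library. Its log2 difference was -1.05 ± 0.260 (SE) with an adjusted p of 0.313 by edgeR. Col8a1, the other type VIII chain, had a log2 difference of -0.02 with an interval of -0.74 to 0.71. Col10a1 lies wholly inside the opposite-strand gene Nt5dc1, so reads of both could mix, and its log2 difference of -0.53 is therefore uncertain.

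Transmembrane collagens, which span the plasma membrane, showed no member with an unadjusted p below 0.05. Col23a1 had 377.5, 350.5 and 339.0 CPM in saline and 336.8, 336.1 and 359.3 CPM in DMP, a log2 difference of -0.05 with an interval of -0.17 to 0.07. Col13a1, Col25a1 and Col17a1 had log2 differences of 0.10, -0.09 and 0.33. Col7a1, the anchoring fibril collagen, had 5.39, 4.25 and 3.52 CPM in saline and 4.30, 3.37 and 4.28 CPM in DMP. Col28a1, at or below 0.592 CPM in every library and at 0 in DMP library 33, had a log2 difference of -0.30 with an interval of -2.18 to 1.57.

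Class sums separated the groups for FACIT and multiplexin genes and overlapped for the other 6 classes. FACIT genes summed to 364.8, 314.7 and 355.7 CPM in saline and 221.4, 248.4 and 301.3 CPM in DMP, a log2 ratio of the group means of -0.42. That ratio was -0.75 for the 3 type IX genes and -0.02 for the 6 other FACIT genes, whose sums overlapped. Multiplexin genes summed to 61.0, 48.6 and 59.5 CPM in saline and 33.7, 34.5 and 46.8 CPM in DMP, a log2 ratio of -0.56, nearly all of it from Col18a1. Network forming genes, at far fewer counts, had the largest log2 ratio of the 8 classes, -0.61, with sums of 5.65, 4.08 and 5.10 CPM in saline and 4.56, 2.46 and 2.68 CPM in DMP, where DMP library 30 lay within the saline range.

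Basement membrane genes summed to 144.0, 129.6 and 144.1 CPM in saline and 113.2, 118.8 and 133.2 CPM in DMP, with DMP library 33 inside the saline range. Fibrillar genes summed to 1200.8, 1159.1 and 1116.9 CPM in saline and 1087.7, 1077.3 and 1196.3 CPM in DMP, and their log2 ratio of -0.05 is that of overlapping groups. Beaded filament genes summed to 41.5, 40.9 and 35.7 CPM in saline and 36.1, 34.0 and 36.5 CPM in DMP. Members at an unadjusted p below 0.05 numbered 3 of 11 fibrillar, 2 of 6 basement membrane, 1 of 6 beaded filament, 3 of 9 FACIT, 1 of 2 multiplexin, 1 of 3 network forming, 0 of 4 transmembrane and 0 of 2 anchoring fibril and other genes. All of these members lay lower in DMP, where 2.56% of all genes were lower at that p. Class medians of the log2 difference were -0.12 for fibrillar, -0.13 for basement membrane, -0.15 for beaded filament and -0.04 for FACIT genes. They were -0.27 for multiplexin, -0.53 for network forming, 0.025 for transmembrane and -0.22 for anchoring fibril and other genes.

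**Figure D3:**
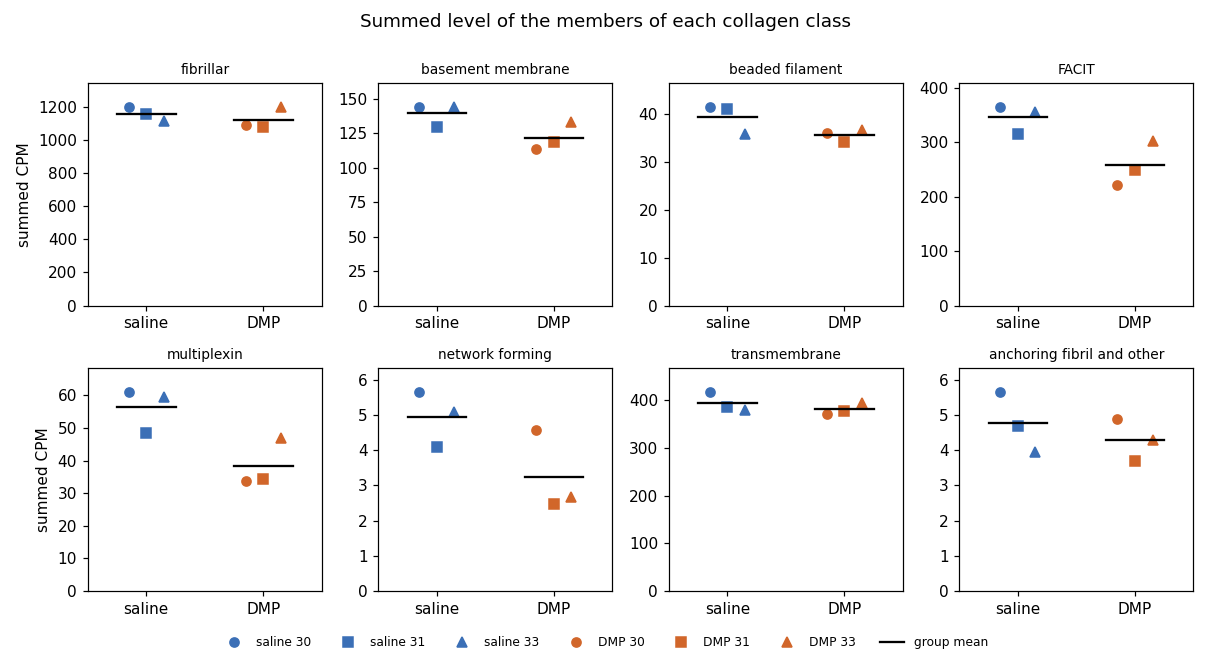
Summed level in CPM of the members of each collagen class in each saline and DMP library, one point a library. The groups are apart for the FACIT and multiplexin classes and overlap for the other 6 classes. The sum of the 6 FACIT genes other than type IX, not drawn, overlaps between groups.

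Genes that build, export, link, cut and sense collagen were examined as 5 lists of 55 genes, 49 of them tested. None was called, 0 of 49, and at an unadjusted p below 0.05, 9 were lower in DMP, 18.4% beside 2.56% of all genes, and 0 were higher. The lists were chosen with earlier results of these data known, so these shares are a description and add no separate support. The median log2 difference of the 49 was -0.06. Serpinh1, which encodes the collagen chaperone HSP47, had 36.6, 29.4 and 32.0 CPM in saline and 20.1, 19.1 and 23.9 CPM in DMP, a log2 difference of -0.64 ± 0.105 (SE) with an adjusted p of 0.0969 by edgeR and 5.02e-06 by DESeq2. The groups lay well apart. Fkbp10, another chaperone of procollagen, was the other gene of 13 tested for folding, export and trimming with an unadjusted p below 0.05, at a log2 difference of -0.36.

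Among crosslinking enzymes 1 of 6 was lower at an unadjusted p below 0.05. This was the lysyl oxidase Loxl1, with 14.8, 12.5 and 13.9 CPM in saline and 7.47, 8.04 and 10.9 CPM in DMP and an adjusted p of 0.233 by edgeR and 0.00785 by DESeq2. Of 8 genes for collagen breakdown, 2 were lower. Mrc2, an uptake receptor for cut collagen, had 19.5, 14.5 and 19.1 CPM in saline and 8.06, 6.34 and 12.2 CPM in DMP, a log2 difference of -0.997 with an adjusted p of 0.143 by edgeR, and the gelatinase Mmp2 had -0.47. Of 14 hydroxylation and glycosylation genes, 3 were lower, with log2 differences of -0.23 for Plod3, -0.32 for P3h1 and -0.32 for Colgalt2. Of 8 receptor genes, Ddr2, a kinase activated by fibrillar collagen, had 12.2, 7.59 and 14.7 CPM in saline and 3.59, 5.64 and 8.46 CPM in DMP, with overlapping groups and an adjusted p of 0.528 by edgeR.

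The libraries also differed in markers of tissues next to the retina. The marker lists were chosen with earlier results of these data known, so their counts are a description. Of all genes 2.56% were lower and 2.08% higher at an unadjusted p below 0.05. Fibroblast markers summed to 129.9, 86.0 and 136.1 CPM in saline and 16.3, 23.1 and 64.3 CPM in DMP. At that p 6 of 7 tested were lower (Dcn, Lum, Ogn, Fmod, Dpt and Fbln1) and 0 were called, while Kera was at 0 counts in every library. Ciliary epithelium markers summed to 171.1, 132.8 and 152.0 CPM in saline and 86.7, 102.7 and 113.2 CPM in DMP. Of the 4 tested, Mfrp was called (adjusted p of 0.0307 by edgeR), Optc, a proteoglycan of the vitreous fibril, had 47.0, 33.9 and 50.8 CPM in saline and 1.36, 7.54 and 20.0 CPM in DMP, Wfdc1 had a log2 difference of -1.56, and Aqp1 had a mean of 83.8 in saline and 83.6 CPM in DMP. In both sums, as in the type IX genes, the DMP libraries ran 30 below 31 below 33, and saline library 31 was the lowest of its group. Saline library 31 was the lowest of saline for 10 of the 11 lower collagen genes, and DMP library 33 the highest of DMP for 7. Among saline libraries, Col1a1, Col1a2 and Col3a1 were highest in library 31, where the fibroblast sum was lowest. Whether these orders are linked was not tested.

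Mfrp was the only gene called in the marker lists. Lens markers summed to 8.60 to 14.3 CPM in saline and 3.51 to 5.24 CPM in DMP. At an unadjusted p below 0.05, 5 of 7 tested were lower (Crygb, Crygc, Crygd, Cryge and Lgsn), against 2.56% of all genes. Pigment cell and pigment epithelium markers summed to 62.7 to 134.7 CPM in saline and 45.2 to 91.8 CPM in DMP. At that p 4 of 9 were lower (Tyr, Tyrp1, Pmel and Mlana). In the same list Rpe65 and Ttr had log2 differences of 0.43 and 0.18, Best1 and Lrat -0.04 and -0.08, and Dct -0.58. Cornea and conjunctiva markers summed to 0.988 to 11.7 CPM in saline and 5.02 to 16.5 CPM in DMP. Krt5 was higher at a log2 difference of 1.36, and Krt4 was at 0 counts in every library. Krt14 and Krt12 had log2 differences of 0.91 and -0.71, each with an interval that contained 0. Retinal neuron markers summed to 53107 to 56736 CPM in saline and 52643 to 55732 CPM in DMP, and 0 of 15 had an unadjusted p below 0.05. Müller glia and astrocyte markers (0 of 8) and endothelium markers (0 of 10) likewise held no such gene, with the smallest p for Rlbp1 and Cldn5, and Acta2 was the single one of 10 mural markers, at a log2 difference of -0.45. Microglia markers were higher, at 76.7 to 100.3 CPM in saline and 107.2 to 149.3 CPM in DMP. At an unadjusted p below 0.05, 4 of 8 were higher (Ctss, Aif1, C1qa and Csf1r), against 2.08% of all genes. The part of these tissues and cells in the collagen differences was not tested, and in bulk RNA fewer cells of a type and less RNA per cell cannot be told apart.

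**Figure D4:**
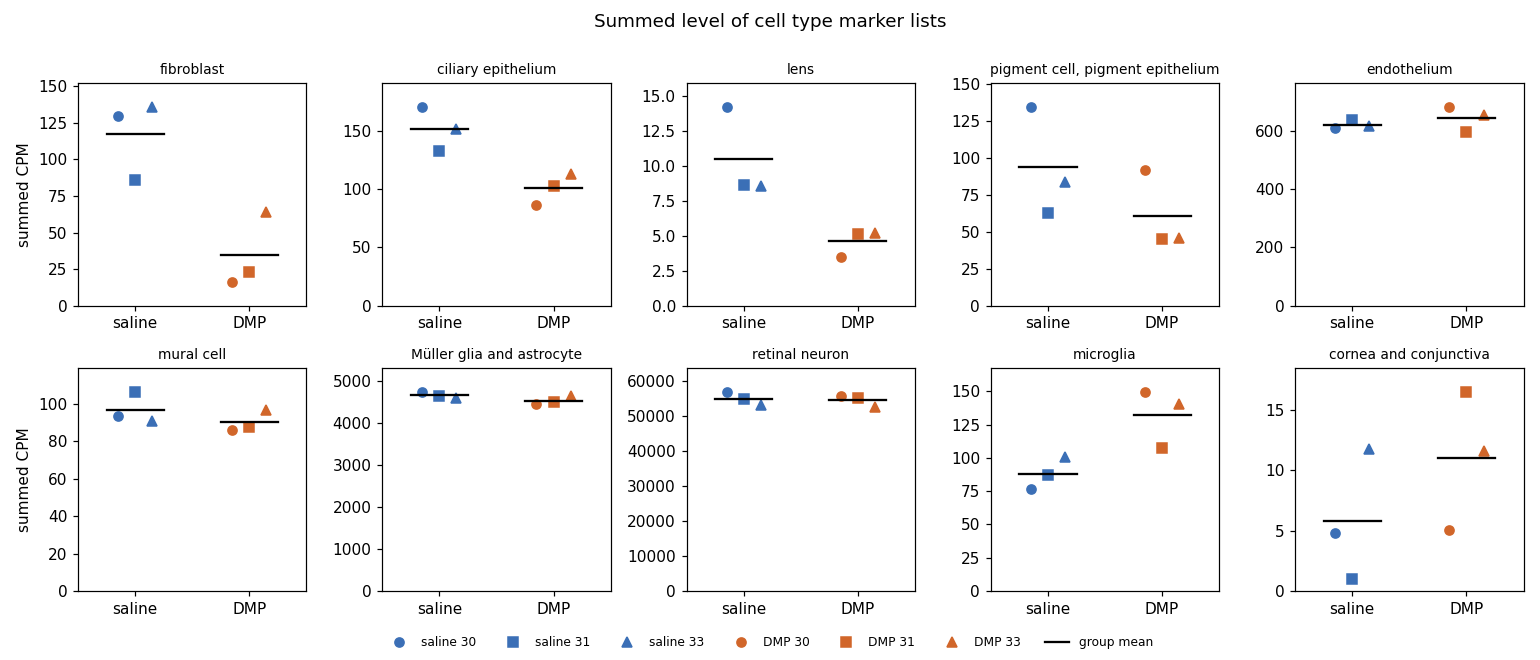
Summed level in CPM of each of the 10 marker lists in each saline and DMP library, one point a library. Fibroblast, ciliary epithelium and lens sums lie lower in all 3 DMP libraries than in any saline library, microglia sums lie higher in all 3, and the sums of the other 6 lists overlap.

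Counts per library totalled 47842234 to 53255925. On the first principal component of all genes, which held 28.1% of the variance, DMP library 30 stood apart at 53.0 and the other libraries lay between -23.4 and 7.01. The share of counts on the 18S ribosomal RNA gene Rn18s was 0.0121 to 0.0338% in saline and 0.0439 to 0.159% in DMP, and its part in the collagen differences was not tested. Without DMP library 30, the log2 difference of Col9a1 was -0.69 and that of Col4a6 -0.98, with adjusted p of 0.227 and 0.214 by edgeR.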

How the data were processed

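RNA was measured in 6 rat retina libraries, 3 a group. Polyadenylated RNA was copied with dUTP in the second strand, per the labels' protocols. The authors' deposited count table held whole numbers, treated here as rounded expected counts. In it 673 to 741 genes a library had a value of 4, against 301 to 325 at 3 and 218 to 254 at 5. A value of 4 may stand for about a single fragment, so low counts are less certain than they look. Larger counts and the library totals may likewise stand for fewer fragments than they read. The authors' deposited FPKM table covered 24744 genes and was used to choose genes to name and for alternatives on log2(FPKM + 0.1) and log2(FPKM + 1). The submitters' processing notes name cutadapt 1.9, FastQC and the genome build mRatBN7.2. Which aligner and counter were used was not given in the sources used here.

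Genes passed edgeR's default filter (minimum count 10, total 15), libraries were scaled by trimmed mean of M-values, and group was the only term of the two-sided quasi-likelihood test (edgeR 4.0.16, R 4.3.3). The SE was derived from the F statistic, and the biological coefficient of variation was 12.2%. Alternatives were DESeq2 1.42.0, limma-voom (limma 3.58.1), DESeq2-style size factors, no filter, at least 50 counts in 3 libraries, a block for the library number, and each library left out. The test was also run on simulated counts with independent libraries. The outcome is not reported here and is not used as support for the collagen differences. Of 190 list symbols 185 had a row, and those without (Col21a1 of the FACIT class among them) were not analysed here. Members and lists were chosen with earlier results of these data known. Values per library are given for members with an unadjusted p below 0.05 and for those of highest mean FPKM in each class, and of other lists the genes below that p, or otherwise the smallest, are named. Differences between groups are taken within a gene, a sum or a ratio of paired genes. PCR copies could not be told from separate fragments.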

Additional observations from a re-analysis of the deposited data

How the results depend on the processing

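The 11 lower collagen genes kept their direction in all 154 combinations of gene and alternative setting. They were picked for lying lower in the same 6 libraries, so this was nearly fixed in advance and adds no separate support. Of 280 such combinations for the 20 genes given by library, 259 kept direction and side of the threshold, 14 newly passed it and 7 changed sign. The 7 were small differences, and with a library left out they ran from -0.010 (without DMP replicate 33) to 0.11 for Col22a1, -0.28 to 0.034 (without saline replicate 30) for Col7a1, -0.014 (without saline replicate 33) to 0.14 for Col6a5, -0.047 to 0.020 (without saline replicate 30, and 0.013 without DMP replicate 31) for Col11a1, and -0.053 (without saline replicate 31, and -0.042 without DMP replicate 30) to 0.14 for Col15a1. Members past the adjusted threshold numbered 0 in the main test, 4 by DESeq2, 1 with at least 50 counts in 3 libraries (Col6a2), and 0 to 6 with a library left out, 6 being without DMP replicate 33. Over all genes these counts were 4, 92, 13 and 0 to 81, with 81 without DMP replicate 33 and 0 without DMP replicate 31. For the collagen-handling genes they were 0 in the main test, 2 by DESeq2 (Serpinh1 and Loxl1) and 0 to 4 with a library left out. At an unadjusted p below 0.05, 10 to 13 members were lower with a library left out and 14 with the replicate block (11 in the main test). Of all genes, 1.98% to 3.87% were lower with a library left out and 2.84% with the block. Members higher at that p numbered 1 by DESeq2 and 0 to 1 with a library left out (0 in the main test), the gene being Col5a3. Of all genes, 1.73% were higher by DESeq2 and 1.62% to 4.34% with a library left out. From summed FPKM in place of CPM, the log2 ratio of the group means was 0.026 for fibrillar genes and -0.021 for all members, against -0.05 and -0.13. Col5a3, the member of highest mean FPKM, had a mean of 233 FPKM in saline and 253 FPKM in DMP. The length implied by its counts and FPKM was 1273 bases, against a span of 45246 bases. The part of single genes in these shifts was not tested. Whether the library numbers pair libraries was not settled by the data. Same-number correlations of deviations were 0.0659, 0.0350 and 0.0281, and those of unlike numbers ran from -0.0794 to 0.0463. Saline 30 and 31 correlated best with their own number and saline 33 with DMP 31. Such small correlations from 3 libraries a group cannot decide it. With the number as a block, 45 genes (0.242% of those tested), 3 collagens (Col4a6, Col9a1 and Col9a3) and 2 collagen-handling genes (Mrc2 and Serpinh1) passed. Depth limits Col28a1, Col17a1 and Col10a1, which had the fewest counts.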

Other observations

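The deposited counts and FPKM values imply 1 fixed length a gene, with a median ratio of 1.02 between the highest and lowest library. For 1157 of 13981 genes with a mean of at least 2 CPM, or 8.28%, that implied length exceeded the gene's own span on mRatBN7.2. Among the collagens it did so for Col10a1, at 7880 bases against a span of 6386 bases. FPKM was used to pick, within each class, genes whose values are given, and for class sums as an alternative, and both share this limit.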
